A study of Mus musculus with 8 samples.

Results

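The genes described here are those of cholesterol synthesis together with further targets and regulators of SREBP2, the transcription factor that switches the pathway on. They were chosen by name. The list held 31 names, which are 30 genes because Sc4mol is an older name of Msmo1, and the array carried 45 probes for them. Each gene was represented by its brightest probe, and a gene counted as measured when 4 or more of the 8 arrays read that probe well above background. This left 29 measured genes among 18534 measured features, and all 29 were well above background on 8 of 8 arrays. Npc1l1, which takes up cholesterol from bile and gut, was well above background on 0 of 8 arrays and is not analysed further. Of the measured genes, 18 encode enzymes that lead from acetyl-CoA to cholesterol.

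The samples were livers of male mice with fibrosis induced over 5 weeks by thioacetamide (TAA) or by carbon tetrachloride (CCl4), both of which injure hepatocytes. The mice were then followed for 2 weeks or for 1 week, with an injection every 3 days of either miR-29a or a negative control oligonucleotide (NC). Each of the 8 groups, one for every combination of agent, week and oligonucleotide, has 1 array. They are TAA 2 weeks miR-29a and its NC, TAA 1 week miR-29a and its NC, CCl4 2 weeks miR-29a and its NC, and CCl4 1 week miR-29a and its NC. Every group therefore went through fibrosis induction and received an injected oligonucleotide, and none was an uninjured liver. The labels do not name a strain or an age, and do not say whether a sample is 1 animal or a pool. No combination was repeated, so the p-values given below measure only the spread left between these 8 samples after a common effect of agent, week and oligonucleotide has been taken out.

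Cells make cholesterol from acetyl-CoA by way of mevalonate, farnesyl diphosphate, squalene and lanosterol, and the liver is a main site of this synthesis. SREBP2 is held in the endoplasmic reticulum by SCAP and the INSIG proteins when sterols are plentiful, and it is carried to the Golgi and cleaved when they are scarce. The released factor then binds sterol regulatory elements, usually beside NF-Y and Sp1 sites, in the promoters of nearly all enzymes of the pathway, so that their transcripts tend to move together. The sterol sensor LXR acts in the other direction and raises the exporters ABCG5 and ABCG8. MicroRNA miR-29a is best known for silencing collagen transcripts in hepatic stellate cells.

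The injected agent is shown first, since the 4 comparisons of miR-29a with NC turn on it. The labels do not name the arm or the chemistry of the oligonucleotide. The sequence is the 3p strand as RefSeq lists it (GRCm38.p6, chr6:31062673-31062694 on the minus strand), with the seed, bases 2 to 8, in capitals.
mmu-miR-29a-3p: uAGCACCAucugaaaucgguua

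Promoters are shown for 4 enzymes from early and late steps. Their difference of miR-29a minus NC in the CCl4 2 weeks pair was 0.98 or more on the log2 scale. Hsd17b7, at 1.03, also met this limit and had a promoter, which is not shown. Each promoter shown is the 250 bases before the start of the gene (RefSeq, GRCm38.p6), written along the gene's own strand. Capitals mark the sterol regulatory element core TCACNCCAC and the NF-Y box CCAAT on either strand, so that ATTGG is an NF-Y box on the opposite strand. The windows are chr13:119690101-119690350 on the plus strand for Hmgcs1, chr5:114444019-114444268 on the plus strand for Mvk, chr8:122443423-122443672 on the minus strand for Mvd and chr8:64733579-64733828 on the minus strand for Msmo1.
Hmgcs1: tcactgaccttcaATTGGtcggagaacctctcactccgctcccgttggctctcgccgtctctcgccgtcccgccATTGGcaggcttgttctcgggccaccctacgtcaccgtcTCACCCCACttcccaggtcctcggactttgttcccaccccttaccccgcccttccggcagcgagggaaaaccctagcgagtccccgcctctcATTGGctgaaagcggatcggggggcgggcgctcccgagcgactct
Mvk: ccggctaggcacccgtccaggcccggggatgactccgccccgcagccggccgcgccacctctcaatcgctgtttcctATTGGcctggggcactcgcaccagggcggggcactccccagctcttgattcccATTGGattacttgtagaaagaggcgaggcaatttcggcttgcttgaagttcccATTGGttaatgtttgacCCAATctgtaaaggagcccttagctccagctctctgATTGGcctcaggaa
Mvd: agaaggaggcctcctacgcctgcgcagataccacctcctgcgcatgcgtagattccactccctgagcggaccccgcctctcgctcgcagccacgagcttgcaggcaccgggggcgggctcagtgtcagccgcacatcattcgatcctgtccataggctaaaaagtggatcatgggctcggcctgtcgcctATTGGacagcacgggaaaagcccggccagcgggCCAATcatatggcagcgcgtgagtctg
Msmo1: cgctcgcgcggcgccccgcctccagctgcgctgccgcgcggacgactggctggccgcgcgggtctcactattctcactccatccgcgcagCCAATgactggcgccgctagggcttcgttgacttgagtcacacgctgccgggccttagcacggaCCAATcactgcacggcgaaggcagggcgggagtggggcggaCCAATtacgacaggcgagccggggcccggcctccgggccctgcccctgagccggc

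The Hmgcs1 promoter held 3 NF-Y boxes and a match to the sterol regulatory element core. The Mvk promoter held 5 NF-Y boxes, the Mvd promoter 2 and the Msmo1 promoter 3. RefSeq promoters were at hand for 24 of the 29 genes, 32 promoters in all, since some genes have several starts. Of the 18 enzymes 15 had a promoter there, again 18 promoters in all, and Fdps, Fdft1 and Sqle were not searched. The Hmgcs1 window was the only one of these 18 with a match to the sterol regulatory element core. Among the 18 promoters of enzymes, 77.8% held at least 1 NF-Y box, against 33.8% of 32851 mouse promoters of the same length. The Sp1 box GGGCGG stood in 83.3% of the enzyme promoters and in 32.7% of all promoters. The E-box CACGTG stood in 16.7% of the enzyme promoters and in 6.02% of all promoters, and the sterol regulatory element core in 5.56% and 1.05%. All 4 motifs were searched on both strands, and none of them contains another. A match describes letters in this window only.

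Levels are given as the log2 of the processed signal minus the log2 of the 75th percentile of the same array, so that a level of 1 is a signal 2 times the 75th percentile, and differences are differences of these log2 levels. Levels can be compared between arrays for 1 gene, not between genes, since probes differ in brightness. The 8 arrays had 43.9% to 48.4% of their spots well above background, a 75th percentile signal of 136 to 219 and 0 saturated spots. They lay on 1 slide and were read in 1 scan, with all TAA samples in slide row 2 and all CCl4 samples in slide row 1, so agent and slide row cannot be told apart. In both rows the 4 combinations of week and oligonucleotide lay at the same 4 positions, so week, oligonucleotide and their interaction cannot be told apart from slide position. Both TAA 1 week arrays stood apart from the others, the NC array most. The median of the 8 acute-phase genes, each centred on its own mean, was 3.88 on the NC array and between -1.05 and -0.35 on the other 7 arrays, and the median of 4 measured neutrophil genes was 4.39 there and at most -0.051 elsewhere. Its mean correlation with the other arrays, 0.965, was the lowest of the 8. The TAA 1 week miR-29a array had the next lowest, 0.970, and also the lowest 75th percentile signal and the lowest share of spots well above background. On the first principal component over all features these 2 arrays stood at 58.8 (miR-29a) and 66.4 (NC). Both CCl4 1 week arrays stood at the other end, at -55.5, and the 2 weeks arrays lay between -15.2 and 13.1. Of the 7 measured hepatocyte markers, all were well above background on every array, and their centred median stayed between -0.23 and 0.24.

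None of the 29 cholesterol genes passed an adjusted p of 0.05 for agent, week or oligonucleotide, or for any of the 3 pairs of these factors (limma over all 18534 features, Benjamini-Hochberg). Over all features the same held for 5 of the 6 tests, with 0 called (background 0%), and the agent by week test called 9.84% of features. At an unadjusted p under 0.05, 8 of 29 genes passed for TAA against CCl4, where 28.7% of all features did, and 2 for 2 weeks against 1 week, where 5.19% did. For miR-29a against NC, 1 passed, where 2.83% of all features did. For the change of the miR-29a difference between the weeks 4 passed, against 1.92% of all features, and for its change between the agents 0 passed, against 1.39%. For agent by week 4 passed, against 30.4%. The bulk RNA of a liver cannot tell fewer cells of a type from less RNA of a gene per cell.

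**Figure D1:**
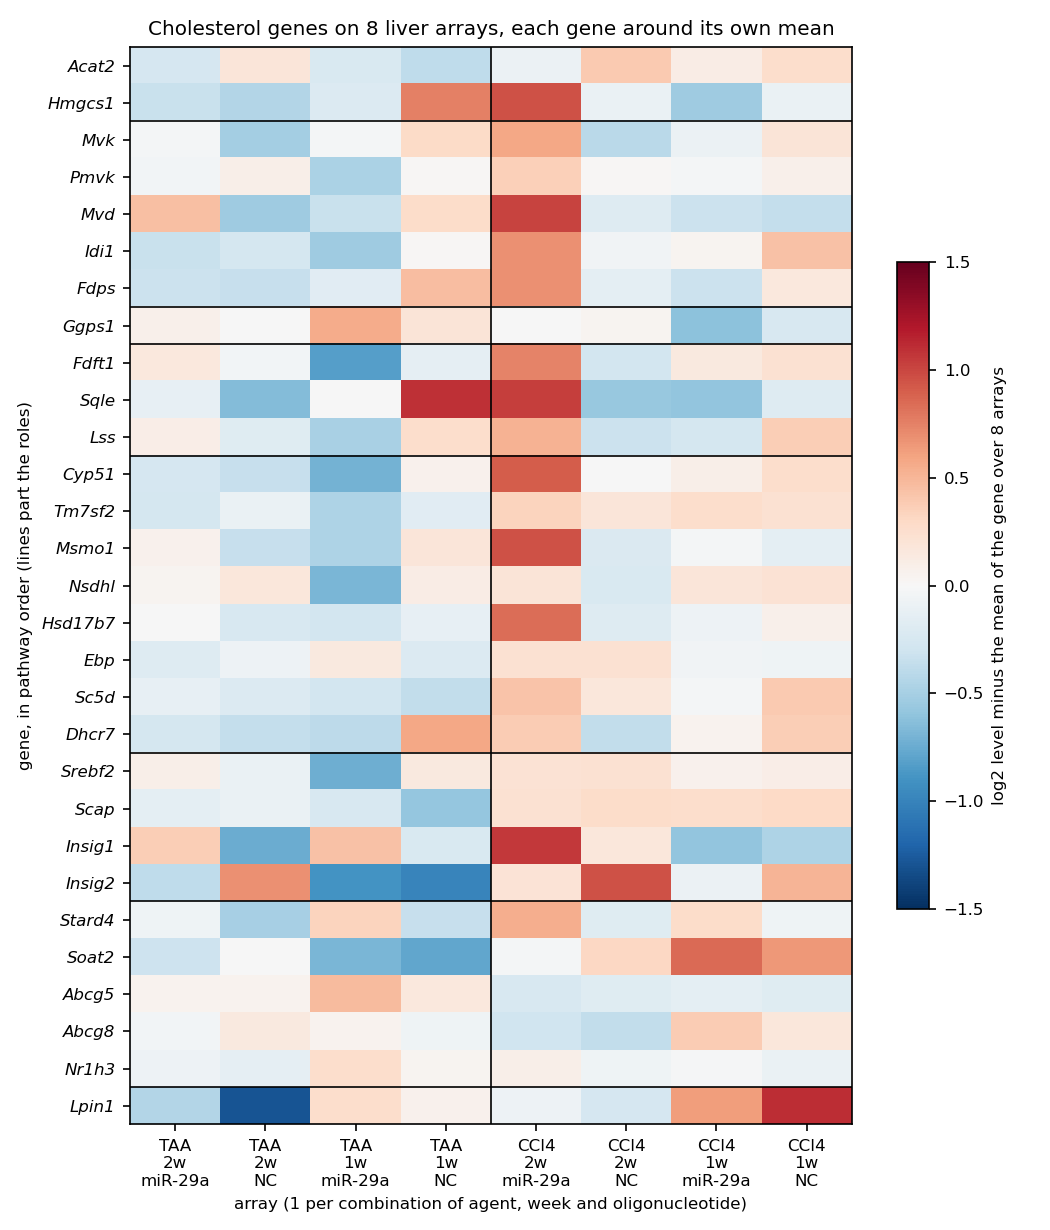
Heat map of the 29 measured genes (rows, in pathway order, lines between roles) on the 8 arrays (columns), coloured by the log2 level minus the gene's mean over the arrays. The CCl4 2 weeks miR-29a column is red for most synthesis enzymes and the TAA 1 week miR-29a column is blue for most of them; 14 and 10 of the 18 enzymes had their highest and lowest level there.

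The probes behind the results named most often below lie, in the mm9 coordinates the files give, at chr15:59162688-59162747 for Sqle, chr5:28404246-28404305 for Insig1, chr1:123201085-123201144 for Insig2, chr15:101993657-101993716 for Soat2 and chr12:16543695-16543754 for Lpin1.

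The first steps join acetyl-CoA units into mevalonate. Acat2, the cytosolic thiolase, read 5.94 with miR-29a and 6.38 with NC in TAA livers at 2 weeks, 5.97 with miR-29a and 5.82 with NC in TAA livers at 1 week, 6.11 with miR-29a and 6.60 with NC in CCl4 livers at 2 weeks, and 6.31 with miR-29a and 6.46 with NC in CCl4 livers at 1 week. Its highest level was on the CCl4 2 weeks NC array and its lowest on the TAA 1 week NC array. Hmgcs1, which makes HMG-CoA, read 7.20 with miR-29a and 7.09 with NC in TAA livers at 2 weeks, 7.32 with miR-29a and 8.29 with NC in TAA livers at 1 week, 8.49 with miR-29a and 7.43 with NC in CCl4 livers at 2 weeks, and 6.99 with miR-29a and 7.43 with NC in CCl4 livers at 1 week. Hmgcs1 was thus highest on the CCl4 2 weeks miR-29a array and next on the TAA 1 week NC array, and the other 6 arrays lay between 6.99 and 7.43.

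Mevalonate is then phosphorylated, decarboxylated and built into farnesyl diphosphate. Mvk, mevalonate kinase, read 4.42 with miR-29a and 3.95 with NC in TAA livers at 2 weeks, 4.42 with miR-29a and 4.74 with NC in TAA livers at 1 week, 5.03 with miR-29a and 4.05 with NC in CCl4 livers at 2 weeks, and 4.36 with miR-29a and 4.65 with NC in CCl4 livers at 1 week. Its 2 lowest levels were those of the NC arrays at 2 weeks. Pmvk, phosphomevalonate kinase, read 5.95 with miR-29a and 6.08 with NC in TAA livers at 2 weeks, 5.52 with miR-29a and 6.01 with NC in TAA livers at 1 week, 6.35 with miR-29a and 6.01 with NC in CCl4 livers at 2 weeks, and 5.96 with miR-29a and 6.07 with NC in CCl4 livers at 1 week. It varied little, and only the TAA 1 week miR-29a array, lowest, and the CCl4 2 weeks miR-29a array, highest, left a narrow band. Mvd, mevalonate diphosphate decarboxylase, read 2.62 with miR-29a and 1.63 with NC in TAA livers at 2 weeks, 1.83 with miR-29a and 2.43 with NC in TAA livers at 1 week, 3.17 with miR-29a and 1.97 with NC in CCl4 livers at 2 weeks, and 1.84 with miR-29a and 1.81 with NC in CCl4 livers at 1 week. At 2 weeks both miR-29a arrays were above every NC array.

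Idi1, the isopentenyl diphosphate isomerase, read 5.57 with miR-29a and 5.63 with NC in TAA livers at 2 weeks, 5.37 with miR-29a and 5.92 with NC in TAA livers at 1 week, 6.59 with miR-29a and 5.85 with NC in CCl4 livers at 2 weeks, and 5.94 with miR-29a and 6.34 with NC in CCl4 livers at 1 week. Every TAA array lay below the CCl4 array of the same week and oligonucleotide. Fdps, farnesyl diphosphate synthase, read 6.73 with miR-29a and 6.71 with NC in TAA livers at 2 weeks, 6.89 with miR-29a and 7.52 with NC in TAA livers at 1 week, 7.74 with miR-29a and 6.91 with NC in CCl4 livers at 2 weeks, and 6.74 with miR-29a and 7.22 with NC in CCl4 livers at 1 week. Its order over the arrays began as for Hmgcs1, with CCl4 2 weeks miR-29a first and TAA 1 week NC second. Ggps1 makes geranylgeranyl diphosphate on the branch that leads away from sterols. It read 1.58 with miR-29a and 1.51 with NC in TAA livers at 2 weeks, 2.07 with miR-29a and 1.71 with NC in TAA livers at 1 week, 1.51 with miR-29a and 1.55 with NC in CCl4 livers at 2 weeks, and 0.90 with miR-29a and 1.27 with NC in CCl4 livers at 1 week. In contrast to the enzymes before it, Ggps1 was highest on the TAA 1 week miR-29a array.

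Squalene and lanosterol follow. Fdft1, squalene synthase, read 4.18 with miR-29a and 3.98 with NC in TAA livers at 2 weeks, 3.20 with miR-29a and 3.89 with NC in TAA livers at 1 week, 4.76 with miR-29a and 3.76 with NC in CCl4 livers at 2 weeks, and 4.17 with miR-29a and 4.26 with NC in CCl4 livers at 1 week. The CCl4 2 weeks miR-29a array was highest and the TAA 1 week miR-29a array lowest. Sqle, squalene epoxidase and a rate-limiting step, read 4.99 with miR-29a and 4.46 with NC in TAA livers at 2 weeks, 5.10 with miR-29a and 6.21 with NC in TAA livers at 1 week, 6.15 with miR-29a and 4.54 with NC in CCl4 livers at 2 weeks, and 4.52 with miR-29a and 4.92 with NC in CCl4 livers at 1 week. Sqle had the widest range of all 18 enzymes, with the TAA 1 week NC and CCl4 2 weeks miR-29a arrays more than a full log2 unit above the others. Lss, lanosterol synthase, read 1.56 with miR-29a and 1.28 with NC in TAA livers at 2 weeks, 0.97 with miR-29a and 1.72 with NC in TAA livers at 1 week, 1.97 with miR-29a and 1.14 with NC in CCl4 livers at 2 weeks, and 1.20 with miR-29a and 1.82 with NC in CCl4 livers at 1 week. In Lss miR-29a stood below NC in both pairs at 1 week and above NC in both pairs at 2 weeks.

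The remaining enzymes turn lanosterol into cholesterol. Cyp51, lanosterol demethylase, read 1.64 with miR-29a and 1.55 with NC in TAA livers at 2 weeks, 1.18 with miR-29a and 1.96 with NC in TAA livers at 1 week, 2.80 with miR-29a and 1.88 with NC in CCl4 livers at 2 weeks, and 1.98 with miR-29a and 2.15 with NC in CCl4 livers at 1 week. The highest and the lowest array both carried miR-29a. Tm7sf2, a sterol reductase, read 6.38 with miR-29a and 6.55 with NC in TAA livers at 2 weeks, 6.18 with miR-29a and 6.48 with NC in TAA livers at 1 week, 6.98 with miR-29a and 6.82 with NC in CCl4 livers at 2 weeks, and 6.91 with miR-29a and 6.87 with NC in CCl4 livers at 1 week. All 4 TAA arrays lay below all 4 CCl4 arrays. Msmo1, a methylsterol oxidase, read 6.75 with miR-29a and 6.34 with NC in TAA livers at 2 weeks, 6.23 with miR-29a and 6.87 with NC in TAA livers at 1 week, 7.64 with miR-29a and 6.47 with NC in CCl4 livers at 2 weeks, and 6.66 with miR-29a and 6.54 with NC in CCl4 livers at 1 week. The CCl4 2 weeks miR-29a array stood clear of the other 7.

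Nsdhl, a sterol dehydrogenase, read 2.29 with miR-29a and 2.42 with NC in TAA livers at 2 weeks, 1.57 with miR-29a and 2.36 with NC in TAA livers at 1 week, 2.44 with miR-29a and 2.02 with NC in CCl4 livers at 2 weeks, and 2.43 with miR-29a and 2.47 with NC in CCl4 livers at 1 week. Only the TAA 1 week miR-29a array fell outside a narrow band. Hsd17b7, a keto-sterol reductase, read 2.40 with miR-29a and 2.16 with NC in TAA livers at 2 weeks, 2.14 with miR-29a and 2.28 with NC in TAA livers at 1 week, 3.25 with miR-29a and 2.22 with NC in CCl4 livers at 2 weeks, and 2.34 with miR-29a and 2.48 with NC in CCl4 livers at 1 week. As in Msmo1, the CCl4 2 weeks miR-29a array stood clear of the rest. Ebp, the sterol isomerase, read 7.93 with miR-29a and 8.05 with NC in TAA livers at 2 weeks, 8.27 with miR-29a and 7.92 with NC in TAA livers at 1 week, 8.36 with miR-29a and 8.35 with NC in CCl4 livers at 2 weeks, and 8.07 with miR-29a and 8.06 with NC in CCl4 livers at 1 week. It had the narrowest range of the enzymes.

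Sc5d, the sterol desaturase, read 6.75 with miR-29a and 6.67 with NC in TAA livers at 2 weeks, 6.60 with miR-29a and 6.51 with NC in TAA livers at 1 week, 7.30 with miR-29a and 7.05 with NC in CCl4 livers at 2 weeks, and 6.84 with miR-29a and 7.26 with NC in CCl4 livers at 1 week. All TAA arrays lay below all CCl4 arrays. Dhcr7, the reductase of the last step, read 2.07 with miR-29a and 1.98 with NC in TAA livers at 2 weeks, 1.93 with miR-29a and 2.90 with NC in TAA livers at 1 week, 2.71 with miR-29a and 1.96 with NC in CCl4 livers at 2 weeks, and 2.39 with miR-29a and 2.69 with NC in CCl4 livers at 1 week. It was lowest on the TAA 1 week miR-29a array and highest on its NC partner.

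SREBP2 and the proteins that hold it followed other patterns. Srebf2, which encodes SREBP2, read -0.26 with miR-29a and -0.44 with NC in TAA livers at 2 weeks, -1.08 with miR-29a and -0.19 with NC in TAA livers at 1 week, -0.13 with miR-29a and -0.11 with NC in CCl4 livers at 2 weeks, and -0.28 with miR-29a and -0.24 with NC in CCl4 livers at 1 week. Only the TAA 1 week miR-29a array departed, downwards. Scap, the escort of SREBP2, read 5.26 with miR-29a and 5.31 with NC in TAA livers at 2 weeks, 5.17 with miR-29a and 4.82 with NC in TAA livers at 1 week, 5.63 with miR-29a and 5.68 with NC in CCl4 livers at 2 weeks, and 5.67 with miR-29a and 5.70 with NC in CCl4 livers at 1 week. The TAA arrays all lay below the CCl4 arrays. Insig1, which retains SREBP2 and is itself an SREBP target, read 3.82 with miR-29a and 2.72 with NC in TAA livers at 2 weeks, 3.90 with miR-29a and 3.23 with NC in TAA livers at 1 week, 4.51 with miR-29a and 3.63 with NC in CCl4 livers at 2 weeks, and 2.87 with miR-29a and 2.99 with NC in CCl4 livers at 1 week. The miR-29a array was above its NC partner in 3 of 4 pairs, and slightly below it in CCl4 livers at 1 week. Insig2, the INSIG protein that does not need SREBP2 and whose liver transcript falls with insulin, read 4.63 with miR-29a and 5.70 with NC in TAA livers at 2 weeks, 4.11 with miR-29a and 4.02 with NC in TAA livers at 1 week, 5.22 with miR-29a and 5.97 with NC in CCl4 livers at 2 weeks, and 4.92 with miR-29a and 5.53 with NC in CCl4 livers at 1 week. It was lowest on the 2 TAA arrays at 1 week and highest on the 2 NC arrays at 2 weeks.

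Transport, storage and export closed the list. Stard4, a cytosolic sterol carrier, read 3.94 with miR-29a and 3.51 with NC in TAA livers at 2 weeks, 4.34 with miR-29a and 3.66 with NC in TAA livers at 1 week, 4.55 with miR-29a and 3.82 with NC in CCl4 livers at 2 weeks, and 4.27 with miR-29a and 3.94 with NC in CCl4 livers at 1 week. In each pair the miR-29a array was higher. Soat2, which esterifies cholesterol in hepatocytes, read 3.47 with miR-29a and 3.77 with NC in TAA livers at 2 weeks, 3.09 with miR-29a and 3.00 with NC in TAA livers at 1 week, 3.74 with miR-29a and 4.09 with NC in CCl4 livers at 2 weeks, and 4.62 with miR-29a and 4.43 with NC in CCl4 livers at 1 week. The 2 TAA arrays at 1 week were lowest and the 2 CCl4 arrays at 1 week highest, with the 2 weeks arrays between them.

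Abcg5, a subunit of the sterol exporter, read 5.49 with miR-29a and 5.48 with NC in TAA livers at 2 weeks, 5.90 with miR-29a and 5.59 with NC in TAA livers at 1 week, 5.19 with miR-29a and 5.25 with NC in CCl4 livers at 2 weeks, and 5.28 with miR-29a and 5.25 with NC in CCl4 livers at 1 week. Every TAA array exceeded every CCl4 array. Abcg8, its partner subunit, read -0.054 with miR-29a and 0.14 with NC in TAA livers at 2 weeks, 0.037 with miR-29a and -0.079 with NC in TAA livers at 1 week, -0.31 with miR-29a and -0.39 with NC in CCl4 livers at 2 weeks, and 0.37 with miR-29a and 0.16 with NC in CCl4 livers at 1 week. The CCl4 arrays at 2 weeks were lowest and those at 1 week highest. Nr1h3, which encodes LXR alpha, read 5.76 with miR-29a and 5.70 with NC in TAA livers at 2 weeks, 6.10 with miR-29a and 5.87 with NC in TAA livers at 1 week, 5.93 with miR-29a and 5.77 with NC in CCl4 livers at 2 weeks, and 5.82 with miR-29a and 5.73 with NC in CCl4 livers at 1 week. Its range, 0.40, was the narrowest of the 29 genes. Lpin1, a phosphatidate phosphatase and coactivator with sterol-responsive control, read 0.85 with miR-29a and 0.0021 with NC in TAA livers at 2 weeks, 1.56 with miR-29a and 1.36 with NC in TAA livers at 1 week, 1.22 with miR-29a and 1.05 with NC in CCl4 livers at 2 weeks, and 1.92 with miR-29a and 2.40 with NC in CCl4 livers at 1 week. All 4 arrays at 2 weeks lay below all 4 at 1 week.

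**Figure D2:**
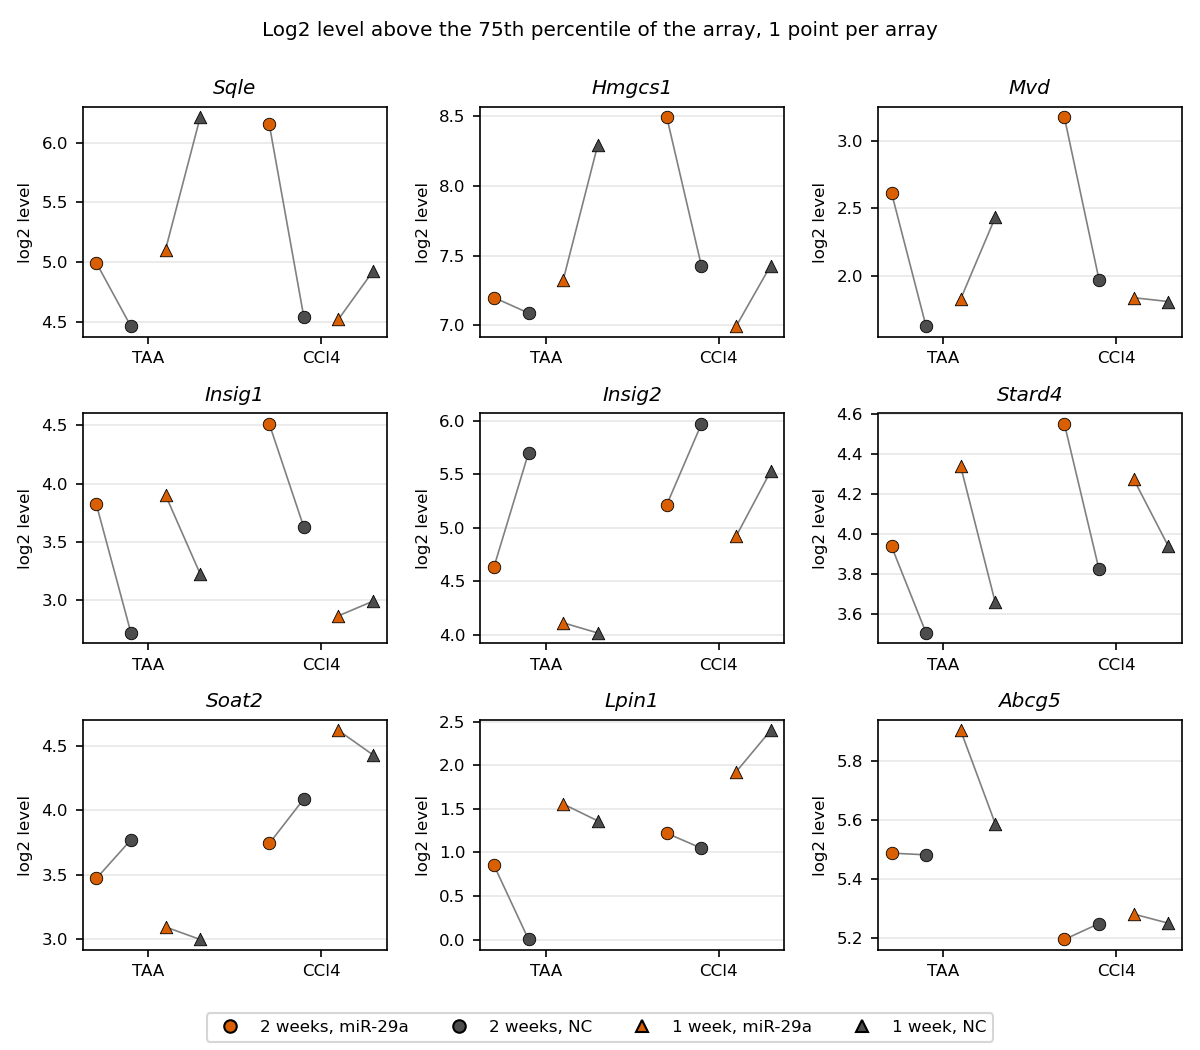
Log2 level above the array's 75th percentile for 9 genes, 1 point per array; orange points are miR-29a and grey points NC, circles 2 weeks and triangles 1 week, and grey lines join the miR-29a and NC arrays of 1 agent and week. In Sqle the line falls to the right at 2 weeks and climbs at 1 week for both agents, whereas in Stard4 the miR-29a point is the higher in all 4 pairs.

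With miR-29a against NC, the synthesis enzymes were mostly higher in the CCl4 2 weeks pair and mostly lower in both pairs at 1 week, while the TAA 2 weeks pair was near 0 and took its sign from the scaling. In the CCl4 2 weeks pair 17 of 18 enzymes were higher with miR-29a, with a median difference of 0.84, and in the TAA 2 weeks pair 12 of 18 were higher, with a median of 0.090. In the TAA 1 week pair 15 of 18 were lower, with a median of -0.62, and in the CCl4 1 week pair 14 of 18 were lower, with a median of -0.16. Over all 18534 features the medians of these pairs were 0.0018, -0.015, 0.13 and 0.020. With arrays scaled on their median the TAA 2 weeks pair had 7 of 18 higher, with a median of -0.072, and over all alternatives run that median lay between -0.072 and 0.15. The other 3 pairs kept the sign of their enzyme median under every alternative run for them. Each pair sets 1 array against 1, so no pair has a replicate check, and the difference between weeks passed no test for any gene after adjustment.

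Past a 1.5-fold difference, the CCl4 2 weeks pair had 12 enzymes higher with miR-29a, where 3.44% of all features were, and 0 lower, where 3.9% were. The TAA 2 weeks pair had 1 higher, Mvd, where 5.17% of all features were, and 0 lower, where 3.7% were. The TAA 1 week pair had 0 higher, where 13% of all features were, and 10 lower, where 11.2% were. The CCl4 1 week pair had 0 higher, where 3.7% of all features were, and 1 lower, Lss, where 5.55% were. Past 2-fold the counts were 6 higher in the CCl4 2 weeks pair and 1 lower in the TAA 1 week pair. The share of all features was not taken at 2-fold, so these counts have no background beside them. The 2 arrays at the ends of this pattern both carried miR-29a. CCl4 2 weeks miR-29a gave the highest level of 14 of 18 enzymes, where it was highest for 10.6% of all features, and TAA 1 week miR-29a the lowest level of 10, where it was lowest for 18.5%.

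By step, the 3 enzymes from squalene synthase to lanosterol synthase were higher with miR-29a in both pairs at 2 weeks, 3 of 3 each, and lower in both pairs at 1 week, 3 of 3 each. Their median differences were 0.28 for TAA and 1.01 for CCl4 at 2 weeks, and -0.75 for TAA and -0.40 for CCl4 at 1 week. Among the 5 enzymes from mevalonate to farnesyl diphosphate, 5 were higher in the CCl4 2 weeks pair, with a median of 0.83, and 5 lower in the TAA 1 week pair, with a median of -0.55. In the TAA 2 weeks pair 3 of these 5 were higher, with a median of 0.023. In the CCl4 1 week pair 4 of them were lower, with a median of -0.28. Of the 8 enzymes after lanosterol, 8 were higher in the CCl4 2 weeks pair, with a median of 0.58, and 6 lower in the TAA 1 week pair, with a median of -0.47. The TAA 2 weeks pair had 5 of these 8 higher, with a median of 0.0845. The CCl4 1 week pair had 5 of them lower, with a median of -0.091. The 2 enzymes before mevalonate split 1 and 1 in every pair except CCl4 1 week, where 2 of 2 were lower.

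Single enzymes carried the pattern to different extents. Sqle differed by 0.53 in the TAA 2 weeks pair, -1.11 in the TAA 1 week pair, 1.61 in the CCl4 2 weeks pair and -0.40 in the CCl4 1 week pair. Hmgcs1 differed in the same order by 0.11, -0.97, 1.06 and -0.44, and Cyp51 by 0.085, -0.78, 0.91 and -0.17. Over the 4 pairs 9 of 18 enzymes were higher in the mean, with a median of -0.027. The means were 0.16 ± 0.52 (SE) for Sqle, -0.057 ± 0.42 (SE) for Hmgcs1 and 0.013 ± 0.27 (SE) for Cyp51 (n = 4 arrays each, limma adjusted p = 0.9997 for each). Acat2 and Ebp did not take part, with differences of -0.48 and 0.0047 in the CCl4 2 weeks pair.

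**Figure D3:**
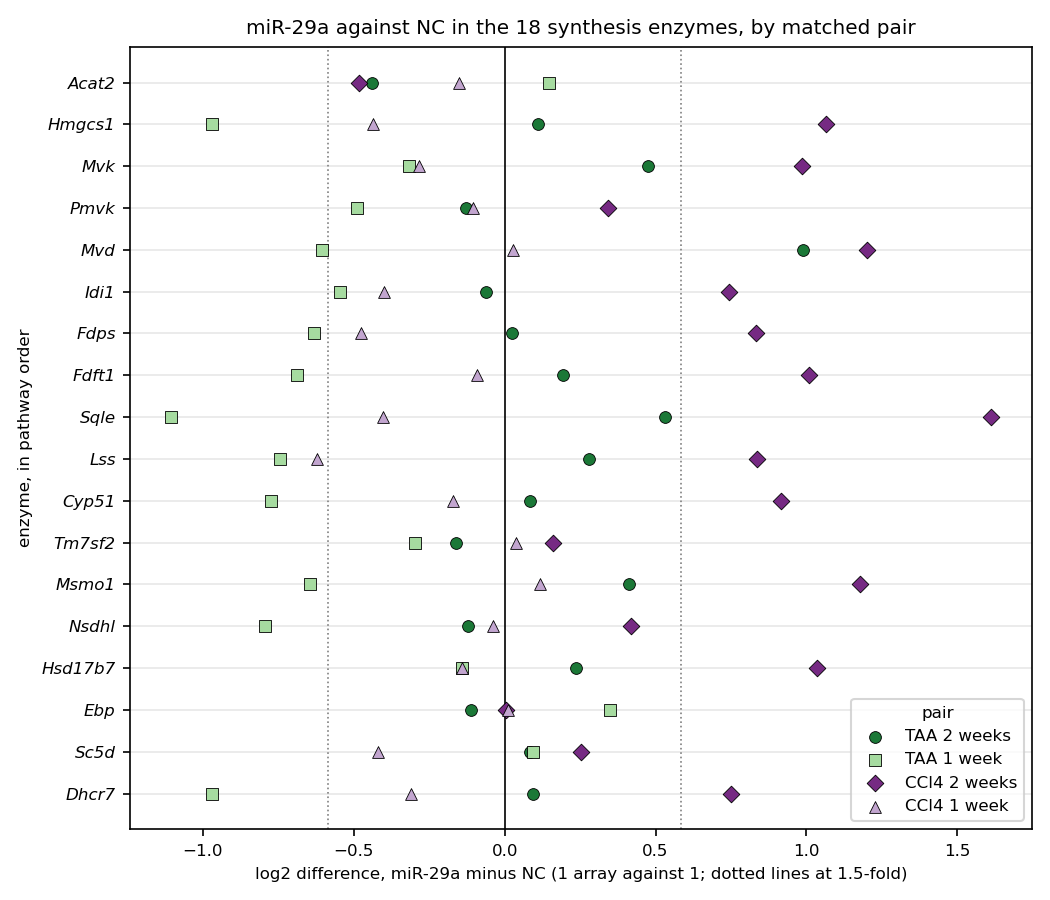
Log2 difference of miR-29a minus NC (horizontal axis) for the 18 synthesis enzymes (vertical axis, in pathway order), 1 point per matched pair of arrays, with dotted lines at a 1.5-fold difference either way. The CCl4 2 weeks diamonds lie furthest right for most enzymes and the TAA 1 week squares furthest left; 12 diamonds and 10 squares are past a dotted line.

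The change of the miR-29a difference between weeks was tested gene by gene. It was positive for 16 of 18 enzymes, with a median of 0.98, against -0.075 over all features. An unadjusted p under 0.05 was reached by Lss, at 1.24 ± 0.30 (SE), Mvd, at 1.38 ± 0.45 (SE), Mvk, at 1.03 ± 0.34 (SE), and Dhcr7, at 1.06 ± 0.38 (SE). For these 4 genes the limma adjusted p was 0.9999, so none held over all features. The change between agents was negative for 15 of 18 enzymes, with a median of -0.45, against 0.050 over all features. Without the CCl4 2 weeks miR-29a array that median over the enzymes was 0.019, with 9 of 18 negative, so it rested on that array, whereas the change between weeks was then 0.55, with 16 of 18 positive.

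Without the TAA 1 week NC array the change of the miR-29a difference between weeks was 0.67 in the median of the enzymes, again with 16 of 18 positive, and the change between agents was -0.16, with 11 of 18 negative. Without the TAA 1 week miR-29a array the change between weeks was 0.86, with 16 of 18 positive, and the change between agents -0.26, with 15 of 18 negative. The CCl4 pairs contain neither array.

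Of the regulators, Insig1 was higher with miR-29a in 3 of 4 pairs, by 1.103 and 0.68 in TAA livers at 2 weeks and 1 week and by 0.89 in CCl4 livers at 2 weeks. The remaining pair, CCl4 at 1 week, differed by -0.13. Its mean difference was 0.64 ± 0.35 (SE), not past the test (n = 4 arrays each, limma adjusted p = 0.9997). Insig2 ran the other way in 3 of 4 pairs, by -1.07 in TAA livers at 2 weeks and by -0.75 and -0.61 in CCl4 livers at 2 weeks and 1 week, while TAA at 1 week differed by 0.095. The mean for Insig2 was -0.58 ± 0.24 (SE) (n = 4 arrays each, limma adjusted p = 0.9997). In the TAA 1 week pair, then, Insig1 was higher while 15 of 18 enzymes were lower.

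Srebf2 differed by -0.88 in the TAA 1 week pair and by no more than 0.18 in size in the other 3. Its mean was -0.19 ± 0.19 (SE) (n = 4 arrays each, limma adjusted p = 0.9997). The mean of Abcg5 was 0.075 ± 0.13 (SE) and that of Abcg8 0.053 ± 0.18 (SE) (n = 4 arrays each, limma adjusted p = 0.9997 for both).

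Stard4 and Nr1h3 were higher with miR-29a in 4 of 4 pairs, as were 10.3% of all features, and 0 of 29 genes were lower in all 4, as were 5.69%. Stard4 differed by 0.43 and 0.68 in TAA livers at 2 weeks and 1 week, and by 0.73 and 0.33 in CCl4 livers at 2 weeks and 1 week. The mean was 0.54 ± 0.14 (SE), the smallest unadjusted p of the 29 genes for the oligonucleotide (0.00746 by limma, adjusted p = 0.9997, n = 4 arrays each). Nr1h3 differed by 0.13 ± 0.13 (SE) on average (limma adjusted p = 0.9997, n = 4 arrays each). On a second probe of Stard4, bright on 8 of 8 arrays, 3 of 4 pairs were higher, and TAA livers at 2 weeks read -0.69 with miR-29a and -0.61 with NC. All miR-29a arrays lay above all NC arrays for 0 of the 29 genes, where 1.06% of all features did, and below them for 0, where 0.372% did.

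Other marker lists moved beside these differences. Of 12 measured clock genes, which follow the time of day, 9 were higher with miR-29a in the TAA 2 weeks pair and 10 in each of the other 3, with medians of 0.78, 0.64, 1.04 and 0.52 for TAA at 2 weeks, TAA at 1 week, CCl4 at 2 weeks and CCl4 at 1 week. Their centred median ranged from 0.21 to 0.80 on the miR-29a arrays and from -0.81 to 0.094 on the NC arrays. In the mean of the 4 pairs 10 of the 12 clock genes were higher with miR-29a and 2 lower. At an unadjusted p under 0.05 by limma 8 passed on the higher side and 1 on the lower side. Of all features 2.83% passed, taking the sides together. No clock gene passed after adjustment. In the TAA 1 week pair 8 of 8 acute-phase genes were lower with miR-29a, with a median of -4.33, 7 of 7 Kupffer cell markers were lower, with a median of -2.41, and 7 of 7 hepatocyte markers were higher, with a median of 0.30. In the CCl4 2 weeks pair 7 of 7 Kupffer cell markers were lower, with a median of -0.70, 5 of 5 endothelial markers were lower, with a median of -0.62, and 6 of 7 hepatocyte markers were lower, with a median of -0.051. In the CCl4 1 week pair 2 of 2 mesothelial markers were lower with miR-29a, with a median of -2.84. There 3 of 3 cholangiocyte markers were also lower, with a median of -1.12. Of 7 stellate cell and myofibroblast markers 6 were lower, with a median of -0.36, while Acta2 was higher by 1.29. The centred median of the mesothelial markers was 2.60 on the CCl4 1 week NC array and at most 0.98 elsewhere. In the TAA 2 weeks pair 3 of 3 cholangiocyte markers were higher with miR-29a, with a median of 0.60, and 7 of 7 stellate cell and myofibroblast markers were higher, with a median of 0.27. The labels give no time of collection. The part of the clock, of these cells and of the acute phase in the values of the cholesterol genes was not tested.

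The 2 weeks against 1 week comparison asks what differed with a longer time after the induction period. Injections were given every 3 days over that time, so its length and the number of injections cannot be told apart. No gene of the list changed past the adjusted threshold. Over the 18 enzymes 14 were higher at 2 weeks in the mean of the 4 pairs, with a median of 0.089, against 0.029 over all features. This small mean hid opposite pairs. Within miR-29a livers the enzymes were mostly higher at 2 weeks, 13 of 18 for TAA, with a median of 0.20, and 17 of 18 for CCl4, with a median of 0.66. Within NC livers they were mostly lower at 2 weeks, 11 of 18 for TAA, with a median of -0.35, and 15 of 18 for CCl4, with a median of -0.27. These pairs use the same 8 arrays as the pairs of miR-29a and NC, so they are the same pattern read along the other factor. Under median scaling the TAA NC pair was near 0, with 10 of 18 lower and a median of -0.066.

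Past a 1.5-fold difference, 11 enzymes were higher at 2 weeks in CCl4 miR-29a livers, where 11.3% of all features were, and 3 in TAA miR-29a livers, where 12.2% were. In TAA NC livers 6 were lower, where 13.8% of all features were, and in CCl4 NC livers 3 were lower, where 7.78% were. Sqle again spanned the range, with -0.11 in TAA miR-29a livers, -1.75 in TAA NC livers, 1.63 in CCl4 miR-29a livers and -0.39 in CCl4 NC livers. In TAA NC livers the difference includes the TAA 1 week NC array. Without that array the median of the enzymes over the remaining arrays was 0.20, with 16 of 18 higher at 2 weeks. Leaving out TAA 1 week miR-29a gave -0.0051 and leaving out CCl4 2 weeks miR-29a gave -0.045, with 8 of 18 higher in each case, so the direction of the mean over the pairs rested on single arrays.

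Lpin1 was lower at 2 weeks in 4 of 4 pairs, and all its arrays at 2 weeks lay below all those at 1 week, as they did for 1.35% of all features. It differed by -0.70 in TAA miR-29a livers, -1.36 in TAA NC livers, -0.70 in CCl4 miR-29a livers and -1.35 in CCl4 NC livers. The mean was -1.03 ± 0.21 (SE), a 0.49-fold level, with an unadjusted p of 0.00235 and an adjusted p of 0.792 by limma (n = 4 arrays each). Insig2 was higher at 2 weeks in 4 of 4 pairs, by 0.74 ± 0.24 (SE) on average (limma adjusted p = 0.872, n = 4 arrays each), with the largest difference, 1.68, in TAA NC livers. Abcg5 was lower in 4 of 4 pairs, by a mean of -0.15 ± 0.13 (SE) (limma adjusted p = 0.887, n = 4 arrays each). Sharing a sign over 4 pairs was met by 6.04% of all features on the higher side and by 6.06% on the lower side.

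The other landmarks had smaller means against their errors. Srebf2 differed by 0.22 ± 0.19 (SE), Hmgcs1 by 0.042 ± 0.42 (SE), Sqle by -0.15 ± 0.52 (SE), Cyp51 by 0.15 ± 0.27 (SE), Insig1 by 0.42 ± 0.35 (SE) and Abcg8 by -0.27 ± 0.18 (SE). Their limma adjusted p ran from 0.878 for Abcg8 to 0.991 for Hmgcs1 (n = 4 arrays each). In the same comparison 8 of 12 clock genes were lower at 2 weeks, with a median of -0.62, and 7 of 12 passed an unadjusted p under 0.05 on that side. Of 7 stellate cell and myofibroblast markers 5 were lower at 2 weeks, with a median of -0.76, and 5 passed an unadjusted p under 0.05 on that side. All 8 acute-phase genes were lower, with a median of -1.48, and all 7 Kupffer cell markers, with a median of -0.64. Each of these lists had 0 genes past an unadjusted p of 0.05. On the TAA 1 week NC array their centred medians were 3.88 and 1.78, against at most -0.35 and 0.14 on any other array. The part of these lists in the differences of the cholesterol genes was not tested.

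Between the agents, most genes of the list were lower in TAA than in CCl4 livers, though none changed past the adjusted threshold. Of the 29 genes 24 were lower, with a median of -0.22, and of the 18 enzymes 17 were lower, with a median of -0.21, all except Sqle. All features leaned the same way, with 11395 of 18534 lower and a median of -0.13. Scaling the arrays on their median in place of the 75th percentile moved the median of all features to -0.52 and that of the 29 genes to -0.61, and quantile normalization moved them to -0.048 and -0.018. Under quantile normalization 10 of 18 enzymes were lower, with a median of -0.012, and 16 of the 29 genes, while under median scaling 18 of 18 enzymes were lower, with a median of -0.60. The count of lower genes, the size of a difference between agents, and for some genes its sign therefore depend on the scaling.

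The 3 genes with the largest difference of constant sign were Soat2, Insig2 and Lpin1. Soat2 was lower in TAA livers by -0.89 ± 0.27 (SE), with -0.27 and -0.32 in miR-29a and NC livers at 2 weeks and -1.53 and -1.44 in miR-29a and NC livers at 1 week (limma adjusted p = 0.131, n = 4 arrays each). Insig2 differed by -0.79 ± 0.24 (SE) (limma adjusted p = 0.131), and Lpin1 by -0.70 ± 0.21 (SE) (limma adjusted p = 0.13), each lower in 4 of 4 pairs. On a second probe of Insig2, bright on 8 of 8 arrays, the difference was -0.35, and the pair of miR-29a livers at 1 week read 3.41 in TAA and 3.36 in CCl4, so the constant sign held on 1 of its 2 bright probes. Relative to the median of all features these differences were -0.76 for Soat2, -0.66 for Insig2 and -0.58 for Lpin1. Of the alternatives run, only median scaling brought these 3 past an adjusted p of 0.05 (0.0431 for each).

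All TAA arrays lay below all CCl4 arrays for Tm7sf2, Sc5d and Scap, as for 18.1% of all features, and above them for Abcg5, as for 5.44%. Tm7sf2 differed by -0.50 ± 0.13 (SE), Sc5d by -0.48 ± 0.14 (SE) and Scap by -0.53 ± 0.14 (SE), and Abcg5 by 0.37 ± 0.13 (SE) (limma adjusted p between 0.13 and 0.137, n = 4 arrays each). Under median scaling Tm7sf2, Sc5d and Scap were among 12 of the 29 genes past an adjusted p of 0.05 in limma, as were 5439 of 18534 features. Abcg5 stood at -0.019 under median scaling, so its sign turned with the scaling. In all, 10 of the 29 genes were lower in 4 of 4 pairs, where 27.1% of all features were, and 1 was higher, where 10.9% were. Srebf2 differed by -0.30 ± 0.19 (SE), Hmgcs1 by -0.11 ± 0.42 (SE), Sqle by 0.16 ± 0.52 (SE), Cyp51 by -0.62 ± 0.27 (SE), Insig1 by -0.082 ± 0.35 (SE) and Abcg8 by 0.052 ± 0.18 (SE), with limma adjusted p from 0.181 for Cyp51 to 0.883 for Insig1 (n = 4 arrays each).

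**Figure D4:**
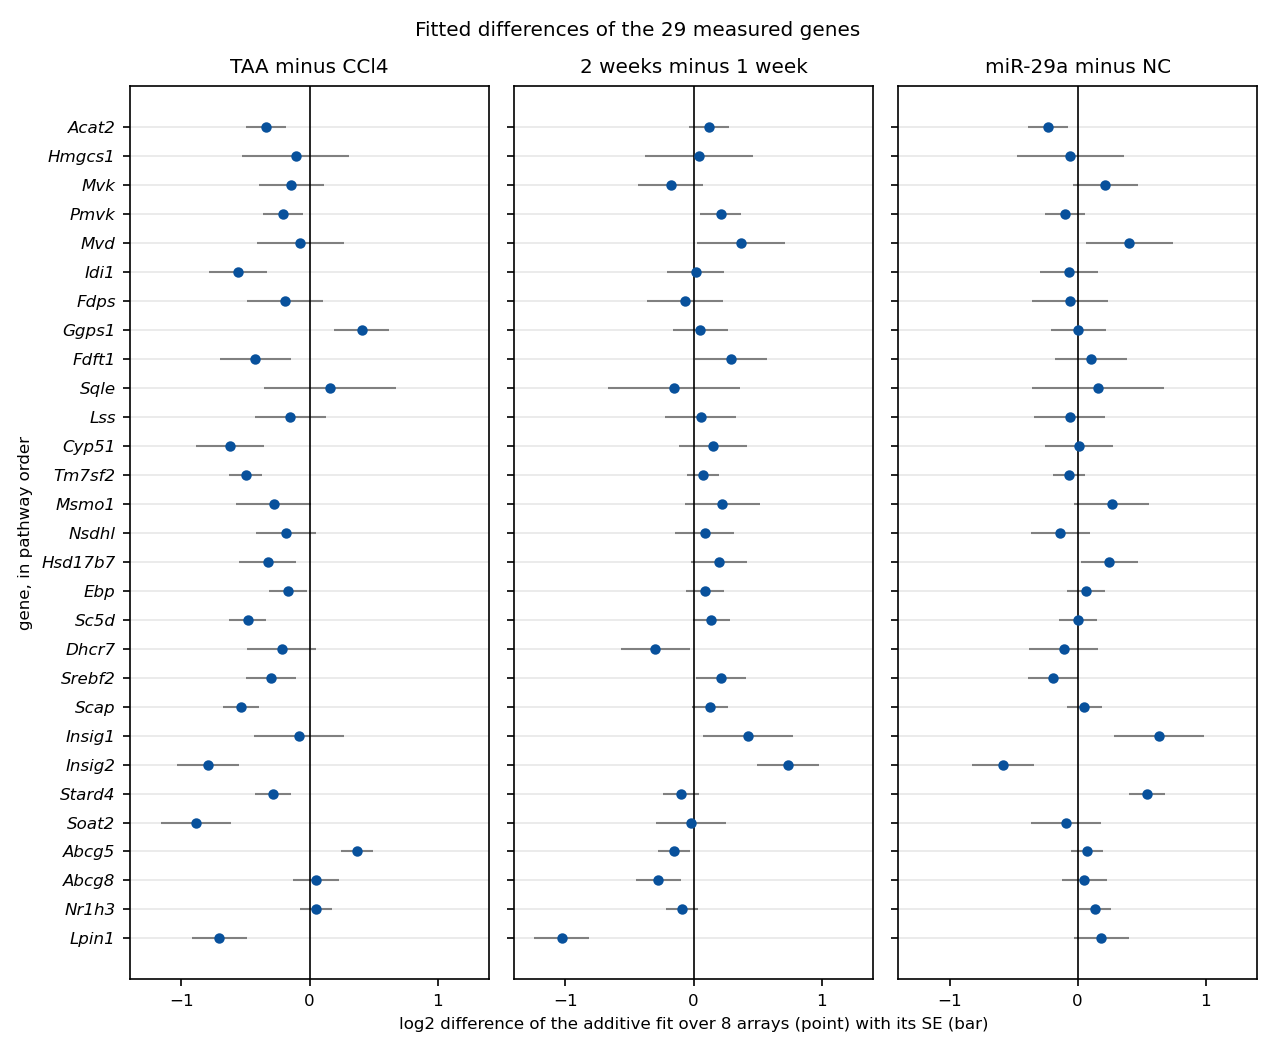
Fitted log2 differences of the 29 genes for TAA minus CCl4, 2 weeks minus 1 week and miR-29a minus NC (points) with their standard errors (bars), from 1 additive limma fit over the 8 arrays. Most points of the agent panel lie left of 0, with Soat2 at -0.89 furthest; Lpin1, at -1.03, is furthest in the week panel, and most enzymes straddle 0 in the oligonucleotide panel.

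The enzymes were lowest against CCl4 in the pair of miR-29a livers at 2 weeks, where 18 of 18 were lower in TAA with a median of -0.60, and 11 were lower past 1.5-fold, as were 5.77% of all features. That pair contains the CCl4 2 weeks miR-29a array already described. In NC livers at 2 weeks 13 of 18 were lower, with a median of -0.16 and 0 past 1.5-fold on that side, where 5.7% of all features were. At 1 week the medians were -0.29 for miR-29a livers, with 13 of 18 lower, and -0.11 for NC livers, with 11 of 18 lower. Over all features the medians of these 1 week pairs were -0.11 for miR-29a livers, with 10397 of 18534 lower, and -0.21 for NC livers, with 11335 lower, so in NC livers the enzymes stood no lower than features in general. Quantile normalization gave the NC pair at 1 week a median of 0.21, with 16 of 18 enzymes higher in TAA. Without the TAA 1 week NC array the median of the enzymes over the remaining arrays was -0.44, with 18 of 18 lower. Without the CCl4 2 weeks miR-29a array it was -0.10, with 10 of 18 lower. All 3 measured genes of dividing cells were higher in TAA livers, with a median of 1.87, and 6 of 7 hepatocyte markers were lower, with a median of -0.24. All 8 acute-phase genes were higher, with a median of 1.24, and all 7 Kupffer cell markers, with a median of 0.69. Both of these lists stood out on the TAA 1 week NC array alone. Their centred medians there were 3.88 and 1.78, against at most -0.35 and 0.14 on any other array. The part of all these lists in the values of the cholesterol genes was not tested.

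The agent difference changed between the weeks for 9.84% of all features at an adjusted p under 0.05, and for 0 of the 29 cholesterol genes. The number of features called fell to 0 when any CCl4 array or any TAA 2 weeks array was left out, and when no filter on background was set. Soat2 came nearest. It differed between TAA and CCl4 by -0.30 at 2 weeks and by -1.48 at 1 week, a change of 1.19 ± 0.26 (SE) (limma adjusted p = 0.0518, n = 2 arrays for each agent and week). It passed with arrays scaled on the median (adjusted p = 0.0255), with another background correction (0.0159) and when only features well above background on all 8 arrays were tested (0.0376). Over all alternatives run its adjusted p lay between 0.0159 and 0.185. Insig1 changed the other way, by -1.43 ± 0.43 (SE), with a TAA minus CCl4 difference of -0.80 at 2 weeks and 0.64 at 1 week (limma adjusted p = 0.096, n = 2 arrays for each agent and week). Abcg8 changed by 0.67 ± 0.21 (SE) and Ggps1 by -0.79 ± 0.28 (SE), with limma adjusted p of 0.103 and 0.134 (n = 2 arrays for each agent and week).

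Further genes of sterol and lipid biology were read from fixed lists beside the members. None of them passed the adjusted threshold for agent, week or oligonucleotide. For agent by week 2 of 14 other sterol genes passed, both upwards, Lcat, which esterifies cholesterol in plasma, by 1.70 ± 0.24 (SE, limma adjusted p = 0.0272), and Stard10, a phospholipid carrier, by 1.499 ± 0.27 (SE, limma adjusted p = 0.0355, n = 2 arrays for each agent and week in both), where 9.84% of all features did. Lcat read 4.57 with miR-29a and 4.73 with NC in TAA livers at 2 weeks, 3.65 with miR-29a and 4.05 with NC in TAA livers at 1 week, 4.33 with miR-29a and 4.46 with NC in CCl4 livers at 2 weeks, and 5.38 with miR-29a and 5.23 with NC in CCl4 livers at 1 week. It was lowest on the 2 TAA arrays at 1 week and highest on the 2 CCl4 arrays at 1 week. Of 6 bile acid genes 1 passed, Cyp27a1, the sterol 27-hydroxylase, with a change of 2.07 ± 0.29 (SE, limma adjusted p = 0.0271, n = 2 arrays for each agent and week). Cyp27a1 read 3.22 with miR-29a and 3.58 with NC in TAA livers at 2 weeks, 1.99 with miR-29a and 1.66 with NC in TAA livers at 1 week, 3.00 with miR-29a and 3.13 with NC in CCl4 livers at 2 weeks, and 3.67 with miR-29a and 3.46 with NC in CCl4 livers at 1 week. The lists of SREBP processing (9 genes), the nonsterol branch (7), LXR partners and targets (6) and fatty acid synthesis (10) had 0 genes past the threshold in this test. Calls were not limited to sterol genes. Of the marker lists, 1 of 7 hepatocyte, 1 of 6 infiltrating macrophage, 1 of 5 endothelial and 1 of 12 clock genes passed, also upwards. The calls of Lcat, Stard10 and Cyp27a1 were lost when any CCl4 or any TAA 2 weeks array was left out. They were also lost when no filter on background was set. That of Stard10 was lost as well without either TAA 1 week array and under quantile normalization. Over the alternatives run the adjusted p lay between 0.0115 and 0.152 for Lcat, 0.0141 and 0.161 for Stard10, and 0.0115 and 0.151 for Cyp27a1.

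Fatty acid synthesis, which SREBP1 and not SREBP2 mainly drives, did not follow the cholesterol enzymes in every pair. With miR-29a 9 of 10 genes were higher in the TAA 1 week pair, with a median of 0.86, where 15 of 18 cholesterol enzymes were lower. In the CCl4 2 weeks pair 5 of 10 were higher, with a median of 0.19. Srebf1, the gene of SREBP1, read 2.86 with miR-29a and 1.96 with NC in TAA livers at 2 weeks, 3.98 with miR-29a and 2.32 with NC in TAA livers at 1 week, 2.73 with miR-29a and 2.26 with NC in CCl4 livers at 2 weeks, and 2.45 with miR-29a and 2.19 with NC in CCl4 livers at 1 week. It was higher with miR-29a in 4 of 4 pairs, as were 10.3% of all features, and most in TAA livers at 1 week, by 1.66. Every miR-29a array lay above every NC array for Srebf1, as for 1.06% of all features. The other 5 lists had medians between -0.28 and 0.39 in the 4 pairs of miR-29a and NC. In the CCl4 2 weeks pair they were -0.083 for other sterol genes, 0.11 for SREBP processing and 0.044 for the nonsterol branch. LXR stood at -0.024 there and bile acid synthesis at 0.066. The bile acid median hid Cyp7a1, picked after its values were seen. With miR-29a it differed by -1.68 and -1.87 in TAA livers at 2 weeks and 1 week, and by 1.52 and 3.01 in CCl4 livers.

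**Figure D5:**
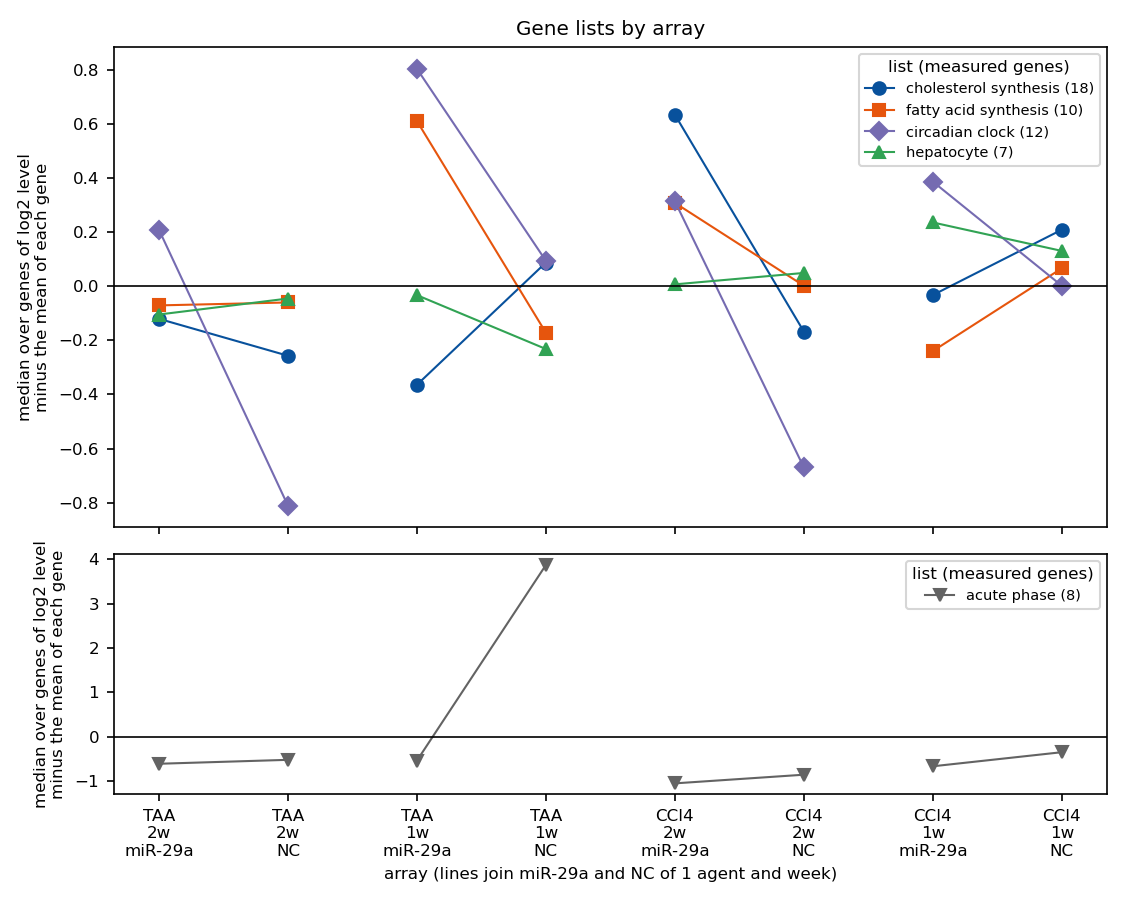
Median over the genes of a list of the log2 level minus each gene's own mean, by array, for cholesterol synthesis, fatty acid synthesis, clock and hepatocyte genes (upper panel) and acute-phase genes (lower panel, own scale); lines join miR-29a and NC of 1 agent and week. Cholesterol synthesis is highest at CCl4 2 weeks miR-29a (0.63) and lowest at TAA 1 week miR-29a (-0.36), where fatty acid synthesis is highest (0.61), and the acute-phase genes stand at 3.88 on the TAA 1 week NC array alone.

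Of the measured genes 13 had more than 1 probe. Second probes that were bright on 8 of 8 arrays gave the same sign of the mean difference for all 3 comparisons in Hsd17b7, Insig2, Mvk, Nr1h3, Nsdhl, Pmvk, Stard4 and Tm7sf2. For Insig2 the second probe differed by -0.35 for agent, 0.65 for week and -0.48 for oligonucleotide, and for Stard4 by 0.28 for oligonucleotide. Ggps1 had 3 bright probes, whose differences for agent were 0.41, 0.35 and -0.050. Dim probes disagreed in places, such as that of Srebf2 that was well above background on 3 of 8 arrays, with 0.46 for agent where the bright probe had -0.30.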

How the data were processed

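Liver RNA of 8 samples was hybridised to Agilent 1-colour mouse arrays. Per the file headers, the deposited intensity values are background-subtracted processed signals from Agilent Feature Extraction 10.10.1.1, with flags for background and outliers. The authors' deposited log2 table equals log2 of these signals minus a constant per array (99.77% to 99.83% of probes within 0.01), with column medians of -4.07 to -3.46; its genes were not centred and each column runs the same way as the scanner values. Of 59305 non-control spots, outlier spots were left out (126 to 196 per array) and spots of a probe averaged, which gave 55681 probes and removed 24. The log2 signal minus that of the array's 75th percentile was taken, probes that 4 or more of the 8 arrays read well above background were kept, and the brightest probe stood for a gene. Probes were named through RefSeq tables where possible, which matched 27641 by accession, 3400 by symbol and 321 by older symbol.

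Agent, week and oligonucleotide entered limma 3.58.1 (R 4.3.3) as additive terms, which left 4 residual degrees of freedom, and each interaction was 1 further term, which left 3. P-values were adjusted by Benjamini-Hochberg over 18534 features. The interaction is the difference of 2 differences. The number of arrays limits the precision. The scripts were tested on simulated data. The genes and lists were chosen with earlier results of these data known, so list counts carry no test of their own. All measured genes were named. Full statistics went to the 3 with the largest difference of constant sign for a factor, where so many existed, and to 8 landmarks (Srebf2, Hmgcs1, Sqle, Cyp51, Insig1, Insig2, Abcg5, Abcg8). Markers of other cell types, the acute phase and the clock were read as lists. Alternatives were other scalings, background corrections, filters and probe rules, the authors' table, matched pairs as a block, and the removal of arrays.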

Additional observations from a re-analysis of the deposited data

Results flagged for a closer look

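The median difference of the synthesis enzymes with miR-29a had opposite signs at 2 weeks and at 1 week, in CCl4 under every alternative run and in TAA not under median scaling, where the TAA 2 weeks pair stood at -0.0716. The median difference of miR-29a minus NC was 0.0898 in the TAA 2 weeks pair and 0.8351 in the CCl4 2 weeks pair, against -0.6175 in the TAA 1 week pair and -0.1607 in the CCl4 1 week pair. For all 29 cholesterol genes the medians were 0.0843 and 0.4193 at 2 weeks, and -0.2986 and -0.126 at 1 week, for TAA and CCl4 in that order. Under median scaling the TAA 2 weeks value for all 29 genes was -0.0771. The difference between the weeks was not tested for these medians, and gene by gene 0 of 29 passed an adjusted p of 0.05 in limma (4 an unadjusted p of 0.05).

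Read along the other factor, the difference of 2 weeks minus 1 week had opposite signs with miR-29a and with NC. For the enzymes its median was 0.1999 in TAA and 0.6589 in CCl4 livers given miR-29a, against -0.3456 in TAA and -0.2662 in CCl4 livers given NC. For all 29 genes it was 0.1354 and 0.3933 with miR-29a, and -0.1718 and -0.117 with NC, for TAA and CCl4 in that order. Under median scaling the TAA NC values were -0.0661 for the enzymes and 0.1077 for all 29 genes. These values come from the same 8 arrays as those above, and their difference was not tested.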

How the results depend on the processing

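Only some results for single cholesterol genes, whose main values are in the report, were followed gene by gene through the alternatives. Of these, 6 passed an adjusted p of 0.05 in limma under an alternative. They were Soat2, Insig2, Lpin1 and Cyp51 for agent and Abcg8 for agent by week under median scaling alone. The last was Soat2 for agent by week, under 3 alternatives. Scaling on the array median moved the TAA minus CCl4 comparison most. It called 5439 features, 4.3% of them higher, and 12 of the 29 genes, with a gene median of -0.608. Besides Soat2, Insig2, Lpin1 and Cyp51 these genes were Acat2, Ebp, Hsd17b7, Idi1, Sc5d, Scap, Stard4 and Tm7sf2, which were not followed singly for agent. For agent by week median scaling called 3451 features, 84.3% of them higher against 56.4% before. It called 2 of the genes, Abcg8 and Soat2, with a gene median of 0.214. Quantile normalization called 11 features for agent, with a gene median of -0.0176, and normexp background correction called 6, as did the filter of all 8 arrays. For agent by week normexp called 3418 features and the filter of all 8 arrays 2214, each with 1 of the genes, Soat2, while no filter called 0 features. Fitting matched pairs as a block called 0 of the genes and 0 features for all 3 factors. Without both TAA 1 week arrays 505 features were called for week and 0 of the genes. Leaving out 1 array at a time kept the count of called genes at 0 in all 6 tests. It moved the features called for agent by week over 0 to 2381, with 0 when any CCl4 or any TAA 2 weeks array was left out, and the gene medians over -0.4198 to -0.1099 for agent, -0.5212 to 0.0781 for miR-29a by agent and -0.3616 to 0.1958 for agent by week. The gene median for miR-29a by week stayed positive under every alternative run, from 0.427 to 0.6483. Counts of enzymes past the fold, values of single pairs and the alternatives for Lcat, Stard10 and Cyp27a1 were chosen after the data had been seen. A 2-fold limit, for which no share of all features was taken, gave 0 higher in the TAA 2 weeks pair. It gave 1 lower in the TAA 1 week pair, 6 higher in the CCl4 2 weeks pair and 0 lower in the CCl4 1 week pair. In the TAA 2 weeks pair median scaling gave 1 lower and quantile normalization 2 higher. Signs turned mostly in genes with small differences, but also in Abcg5 for agent, whose main difference was 0.3718. For TAA minus CCl4, Hmgcs1 was 0.1505 and Insig1 0.1279 under quantile normalization, and Sqle -0.2323, Abcg5 -0.0188 and Abcg8 -0.3382 under median scaling. For miR-29a minus NC, Cyp51 was -0.0313 under median scaling, -0.0044 under quantile normalization and -0.0186 under normexp. Without both TAA 1 week arrays Sqle was -0.6174 for agent and 0.6218 for week, and for miR-29a minus NC Srebf2 was 0.0411, Hmgcs1 0.2468 and Abcg5 -0.0058. Leaving out 1 array at a time, the agent difference ran over -0.5126 to 0.3483 for Hmgcs1, -0.3517 to 0.7154 for Sqle, -0.4513 to 0.2146 for Insig1 and -0.0925 to 0.1755 for Abcg8. The week difference ran over -0.4145 to 0.4464 for Hmgcs1, -0.711 to 0.3561 for Sqle and -0.1078 to 0.3771 for Cyp51. The miR-29a difference ran over -0.3007 to 0.0016 for Srebf2, -0.5139 to 0.3471 for Hmgcs1, -0.3983 to 0.6688 for Sqle, -0.2434 to 0.2415 for Cyp51, -0.0128 to 0.1341 for Abcg5 and -0.0698 to 0.1981 for Abcg8. The cause of these changes was not tested. Slide or scan as a block was not run, since all arrays share 1 slide and 1 scan. No paired analysis by replicate number was possible because each group holds 1 sample. With 1 array per combination, differences within a single pair have no error of their own.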

Other observations

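Among sterol genes outside the members, Aacs, which activates acetoacetate for cytosolic synthesis, was picked after its values were seen. It had a log2 level of 4.40 with miR-29a and 4.13 with NC in TAA livers at 2 weeks, and of 5.52 with miR-29a and 3.98 with NC in TAA livers at 1 week. In CCl4 livers it had 4.93 with miR-29a and 3.55 with NC at 2 weeks, and 4.72 with miR-29a and 3.66 with NC at 1 week. The miR-29a array was higher in 4 of 4 pairs, and every miR-29a array lay above every NC array, as for 1.06% of all features. Its 2 largest pair differences, 1.54 and 1.38, lay in the TAA 1 week and CCl4 2 weeks pairs, where the medians of the synthesis enzymes had opposite signs.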
